A study of Mus musculus with 18 samples.

Results

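Imprinted genes are genes of which a cell reads mainly the copy inherited from a single parent. A list of 43 mouse imprinted genes was followed by gene symbol through a count table of 25909 genes. 39 of the 43 were found there, 16 usually read from the maternal copy and 23 from the paternal copy, in 22 chromosomal domains. The symbols and gene identifiers of Kcnq1ot1, Peg13, Rian and Mirg matched no row, and these 4 genes were not analysed here. 9 of the 39 were marked as imprinted for some transcripts or in some tissues only: Gnas, Grb10, Ube3a, Blcap, Ppp1r9a, Copg2, Inpp5f, Commd1 and Trappc9. That marking is not complete, and members without it may also be imprinted in some tissues only. 36 members (15 maternal, 21 paternal) passed the filter on low counts and were tested. Airn, Asb4 and Rasgrf1 did not pass.

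At most imprinted genes, imprinting rests on DNA methylation that the egg or the sperm lays down at imprinting control regions, and that later cell divisions copy. In the early embryo the zinc finger proteins ZFP57 and ZFP445, with their partner TRIM28, keep that methylation in place, while primordial germ cells remove it, so that new marks can be set according to the sex of the animal. Many imprinted genes act on growth of the embryo and placenta, and they lie in clusters in which a non-coding RNA and protein-coding genes are often read from opposite copies. The libraries carry no allele information, so every level below is the sum over both parental copies, and reading of a silent copy cannot be told apart from stronger reading of the active one.

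The study asked how loss of Esrrb, a nuclear receptor of the naive pluripotency network, bears on the route from pluripotent cells to germ cells. All groups came from mouse embryonic stem cells of B6CBA/129 background that carry the SGET reporters and were kept in 2i/L medium. They were WT or EsrrbKO. EpiLC, a model of the epiblast made with activin A and bFGF on fibronectin, were taken unsorted. PGCLC, a model of primordial germ cells made from EpiLC with BMP4, LIF, SCF, BMP8a and EGF, were taken after 3 or 5 days as sorted SG+ETlow cells. Each of the 6 groups has 3 polyA RNA libraries. The WT libraries are numbered 1 to 3. The KO libraries come from lines A5, B1 and A2. The labels do not say whether the WT libraries are separate cultures, so p-values measure the spread between these libraries, part of which may be technical. Sample descriptions give the later time as d6, while titles and characteristics give 5 days.

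The libraries held 3032965 to 5286330 counts (median 4246221). Esrrb counts were 2434 to 3125 in WT PGCLC and 359 to 933 in KO PGCLC. In EpiLC they were 79 to 127 in WT, 29 in KO A5 and 18 in KO B1. They were 167 in the EpiLC library labelled KO A2, above every WT EpiLC library. Genes of chromosome 11 had a median log2 ratio to WT of -0.465 in that library, beside -0.42 and -0.458 in the PGCLC libraries of line A2. Those of chromosome 1 had 0.303 there, beside 0.298 and 0.311. Why the Esrrb count of that library was above WT was not tested. That library also stood apart in its markers. The summed level of 7 mesenchyme markers was 645 CPM (a gene's counts scaled to the library's total, adjusted by TMM scaling) there, 110.5 and 89.1 in the other KO EpiLC libraries and 24.6 to 28.6 in WT EpiLC. The summed level of 5 formative markers was 909 CPM there, 2447 and 2873 in the other KO and 3624 to 3677 in WT EpiLC. In PGCLC the summed level of 7 germ cell markers was 797 to 1068 CPM in WT and 610 to 1125 CPM in KO, and no library had one of these markers at 0. That of 7 naive markers was 1801 to 1939 CPM in WT and 731 to 1171 CPM in KO PGCLC, with no overlap. The part of these markers in the results below was not tested, and in such bulk samples fewer cells of a type and less RNA per cell cannot be told apart. Genes of chromosome 11 had a median log2 ratio to WT of -0.47 to -0.42 in the 3 libraries of line A2 against 0.02 to 0.08 in the other lines, and genes of chromosome 1 one of 0.30 to 0.31 against -0.03 to 0.04. Grb10, Zrsr1 and Commd1 lie on chromosome 11 and Zdbf2 on chromosome 1. Line A2 was not the only line with such shifts. Genes of chromosome 16 had a median of -0.47 to -0.41 in line B1 and -0.46 to -0.42 in A2, against -0.04 to 0.05 in A5. On chromosome 8 it was -0.18 to -0.12 in A5, -0.14 to -0.08 in B1 and -0.12 to -0.09 in A2. No member analysed lies on chromosome 8 or 16, and fits without line A2 still hold the shifts of the other lines.

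Promoters of 5 members that were higher in KO PGCLC are shown here, since these members carry the main difference described below. They come from RefSeq on build GRCm38.p6, run 5′ to 3′ on the gene's strand from 250 bases before to 50 bases after a transcript start, and have matches to TGCCGC on either strand in capitals. TGCCGC is the motif that ZFP57 binds when methylated. Where RefSeq gives more than 1 start, as for Meg3 (2) and Mest (3), a window with the most matches is shown, and 1 other Meg3 and 1 other Mest window held none. The Meg3 promoter shown lies at chr12:109540746-109541045 on the plus strand, the Mest promoter at chr6:30737800-30738099 on the plus strand, the Nnat promoter at chr2:157559828-157560127 on the plus strand, the Plagl1 promoter at chr10:13090582-13090881 on the plus strand and the Peg3 promoter at chr7:6730370-6730669 on the minus strand.
Meg3: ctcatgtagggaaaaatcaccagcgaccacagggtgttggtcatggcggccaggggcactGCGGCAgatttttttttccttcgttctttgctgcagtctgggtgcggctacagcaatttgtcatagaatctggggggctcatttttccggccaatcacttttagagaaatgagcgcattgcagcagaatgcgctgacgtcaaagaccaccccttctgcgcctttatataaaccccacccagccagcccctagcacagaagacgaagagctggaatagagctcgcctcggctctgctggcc
Mest: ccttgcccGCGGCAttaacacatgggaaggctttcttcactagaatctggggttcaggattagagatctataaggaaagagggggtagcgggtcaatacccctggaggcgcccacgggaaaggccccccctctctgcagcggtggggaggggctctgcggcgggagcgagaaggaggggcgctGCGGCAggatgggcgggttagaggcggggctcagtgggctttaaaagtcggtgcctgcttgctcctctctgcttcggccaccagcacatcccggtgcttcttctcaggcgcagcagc
Nnat: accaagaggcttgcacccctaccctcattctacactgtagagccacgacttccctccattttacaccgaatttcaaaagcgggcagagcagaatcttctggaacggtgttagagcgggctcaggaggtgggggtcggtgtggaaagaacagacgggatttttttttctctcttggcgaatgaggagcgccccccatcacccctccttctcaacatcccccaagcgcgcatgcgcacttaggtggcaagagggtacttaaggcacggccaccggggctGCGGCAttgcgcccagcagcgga
Plagl1: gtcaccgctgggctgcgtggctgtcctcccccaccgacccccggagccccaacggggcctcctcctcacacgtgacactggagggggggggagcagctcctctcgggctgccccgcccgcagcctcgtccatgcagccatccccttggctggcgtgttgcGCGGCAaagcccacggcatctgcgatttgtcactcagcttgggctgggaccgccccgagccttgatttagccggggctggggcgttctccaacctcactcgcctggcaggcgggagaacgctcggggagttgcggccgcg
Peg3: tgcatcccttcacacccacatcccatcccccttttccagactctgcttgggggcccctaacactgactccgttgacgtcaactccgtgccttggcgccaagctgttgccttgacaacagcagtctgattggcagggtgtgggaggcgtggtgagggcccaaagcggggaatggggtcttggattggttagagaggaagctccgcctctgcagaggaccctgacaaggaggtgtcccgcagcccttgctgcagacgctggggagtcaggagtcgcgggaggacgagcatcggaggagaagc

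The Mest window shown holds 2 matches, those of Meg3, Nnat and Plagl1 hold 1 each, and that of Peg3 holds none. The Peg3 window overlaps the promoter of Usp29, which starts in the opposite direction at chr7:6730333-6730632 on the plus strand. Of 32 members with a RefSeq promoter, 13 (40.6%) had TGCCGC in at least 1 of them, while 13.1% of all 27025 genes and 11.6% of all 32851 promoters of this length had it. Member promoters were richer in CpG pairs, with a median of 15.5 against 7 over all promoters, and the motif itself contains a CpG. The letters TCAAGGTCA, a site that ESRRB binds, occurred on either strand in 0.423% of all promoters and in the promoters of none of the 32 members. Such matches describe the letters of these windows only.

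Levels of members were compared with each other as mean CPM per kilobase of merged GENCODE exons. In WT EpiLC the highest were Snrpn (165), a small nuclear ribonucleoprotein gene, Mest (104), Peg10 (98.1), a gene of retrotransposon origin needed for the placenta, and Meg3 (86.4), a maternally read long non-coding RNA. In WT PGCLC at day 3 the order was H19 (462), a maternally read non-coding RNA, Peg10 (132), Slc38a4 (101), an amino acid transporter, and Snrpn (43.4). At day 5 H19 (410), Slc38a4 (107), Peg10 (82.5) and Snrpn (45.4) led. Members together took 0.559 to 0.587% of all counts in WT EpiLC, 0.461 to 0.501% in WT day 3 and 0.4 to 0.431% in WT day 5. They took 0.599 to 0.967% in KO day 3 and 0.484 to 0.559% in KO day 5, above every WT library of the same day. Abundant members weigh most in such a sum. At day 5 the mean of Peg3 was 263 CPM in WT and 998.5 in KO. At day 3 it was 345 and 945 for Peg3, 1137 and 2087 for H19, and 880 and 1416 for Peg10. Neither H19 nor Peg10 was called there. Of 36 members tested, 13 had a fitted change below 0 in KO at day 3 and 11 at day 5. In KO EpiLC the share was 0.607 and 0.562% in lines A5 and B1 and 1.19% in the library labelled A2. At the low end Rasgrf1 had 0 counts in every PGCLC and WT EpiLC library and 3 in KO EpiLC together, and Airn had 0 to 15 counts over a group.

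The first comparison set WT PGCLC at day 3 against WT EpiLC, to see how the imprinted genes differed between these stages. EpiLC were taken unsorted and PGCLC sorted, with other culture factors. In this step stage, sorting and culture therefore cannot be told apart, in WT or in KO. 11 of 36 members rose and 15 fell, 30.6% and 41.7%, where 29.0% of all 12856 genes tested rose and 28.5% fell (edgeR quasi-likelihood test, Benjamini-Hochberg adjusted p under 0.05 over all genes tested). Of 21 paternally read members 5 rose and 11 fell, and of 15 maternally read members 6 rose and 4 fell. The median log2 fold change was -0.24 over the members, the same with Nap1l5 at its bound given below, and 0 over all genes. The median size of change was 1.15 for members and 0.58 for all genes. All levels, above and below, are CPM with TMM scaling, and ± is an approximate SE of the log2 fold change. It was worked back from the test, as the size of the log2 fold change divided by the square root of its F statistic.

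The non-coding RNA H19 rose most. Its level was 87.4, 82.1 and 69 CPM in the 3 WT EpiLC libraries and 1020, 1223 and 1166 CPM at day 3, a log2 fold change of 3.84 ± 0.79 (adjusted p = 0.000678). Its neighbour Igf2, which codes for the growth factor IGF2, went from 7.85, 9.13 and 10.9 to 17.6, 19.4 and 34.5 CPM, without overlap but short of the threshold (1.35 ± 0.60, adjusted p = 0.0665). Igf2r codes for the receptor that clears IGF2 and rose from 115, 106 and 98.2 to 311, 316 and 312 CPM (1.56 ± 0.12, adjusted p = 4.54e-08). Sfmbt2, a polycomb protein gene, rose from 58.6, 61.4 and 65.4 to 280.2, 291 and 314 CPM (2.26 ± 0.22, adjusted p = 5.43e-07). Slc38a4 rose from 129, 129 and 130.5 to 399, 453 and 440.2 CPM (1.73 ± 0.27, adjusted p = 5.77e-05). The zinc finger gene Plagl1, known as a regulator of growth and of other imprinted genes, rose from 2.88, 3.45 and 4.43 to 19.1, 14.7 and 13.6 CPM (2.13 ± 0.66, adjusted p = 0.012). Trappc9, a vesicle traffic gene, rose from 18.1, 15.5 and 15.6 to 39.8, 43.3 and 40.2 CPM (1.32 ± 0.15, adjusted p = 2.47e-06). In each of these risers all 3 day 3 libraries lay above all 3 EpiLC libraries. Usp29, Copg2, Sgce, Commd1 and Ppp1r9a rose by less, with log2 fold changes of 0.50 to 0.95.

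Both tested genes of the Dlk1-Meg3 domain fell. Meg3 went from 1619, 1688 and 1382 CPM in WT EpiLC to 60.05, 65.6 and 72.6 CPM at day 3 (-4.56 ± 0.47, adjusted p = 1.38e-06). Dlk1, a ligand-like protein of the Notch family, fell from 15.7, 17.02 and 18.2 to 0.241, 0.376 and 0.908 CPM (-4.99 ± 0.32, adjusted p = 1.06e-08), with 199 counts over the 3 EpiLC libraries and 7 over the day 3 libraries. Grb10, an adaptor that dampens insulin and IGF receptors, fell from 263, 264 and 285 to 13.99, 15.4 and 14.8 CPM (-4.20 ± 0.36, adjusted p = 1.68e-07). Mest, a hydrolase-fold gene expressed in mesoderm and growing tissue, fell from 376, 420.3 and 431 to 42.4, 42.7 and 46.8 CPM (-3.22 ± 0.21, adjusted p = 1.5e-08). The paternal genes of the Prader-Willi domain fell together. Snrpn fell from 875, 833 and 877 to 237, 217 and 225 CPM (-1.93 ± 0.17, adjusted p = 1.58e-07). Ndn and Magel2 code for MAGE proteins, and Ndn fell from 21.98, 27.6 and 24.2 to 10.4, 11.8 and 12.3 CPM (-1.10 ± 0.29, adjusted p = 0.00415). Magel2 fell from 18.6, 18.7 and 17.97 to 1.93, 0.752 and 0.681 CPM (-4.04 ± 0.46, adjusted p = 2.6e-06). Ube3a, the ubiquitin ligase gene at the other end of that domain, had a log2 fold change of -0.16 ± 0.10 (adjusted p = 0.197).

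Nnat, a small membrane protein of neurons, fell from 24.6, 21.2 and 25.5 to 5.79, 6.96 and 4.09 CPM (-2.07 ± 0.48, adjusted p = 0.00175). Gnas, the stimulatory G protein subunit, fell from 282, 266 and 259 to 80.5, 83.5 and 92.2 CPM (-1.66 ± 0.18, adjusted p = 1.45e-06). Cdkn1c, a cyclin-dependent kinase inhibitor, fell from 15.96, 18.5 and 16.7 to 3.62, 5.45 and 4.09 CPM (-1.94 ± 0.33, adjusted p = 0.00013). The retrogene Mcts2, a translation factor gene with a close copy on the X chromosome, fell from 30.4, 31.1 and 34.6 to 13.02, 13.5 and 15.2 CPM (-1.20 ± 0.18, adjusted p = 3.11e-05). Nap1l5 had 46 counts over the WT EpiLC libraries and 0 over those of day 3, which is at least 17.5-fold lower when 3 counts over the group are taken as the floor. Nespas, Inpp5f and Zrsr1 fell by less, with log2 fold changes of -0.74 to -0.36. Impact, Peg3, Peg10, Phlda2, Ascl2, Blcap, Zim1 and Zdbf2 did not pass the test, nor did Ube3a and Igf2.

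From day 3 to day 5 in WT no member was called, where 0.288% of all genes rose and 0.482% fell. 7 members, and 13.9% of all genes, had an unadjusted p under 0.05. DESeq2 called 3 members, all lower, where it called 1.52% of all genes lower. The limma fit called 1, also lower, where it called 0.568% of all genes lower. Mest came nearest, with 42.4, 42.7 and 46.8 CPM at day 3 and 25.5, 20.6 and 21.9 CPM at day 5 (-0.95 ± 0.22, adjusted p = 0.0507), followed by Phlda2, a growth-limiting gene of the placenta, with 18.8, 21.1 and 21.3 and 4.82, 5.999 and 8.54 CPM (-1.67 ± 0.41, adjusted p = 0.0644). In both genes the 2 days did not overlap.

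The next question was which imprinted genes differed between KO and WT. The largest number did so in PGCLC at day 5. There 9 of 36 members (25.0%) were higher in KO and 3 (8.33%) lower, where 9.83% of all genes tested were higher and 7.62% lower. 7 of the 9 are paternally read and 2 maternally. The median log2 fold change was 0.24 over the members, 0.22 without Nap1l5, which is near 0 counts, and 0.01 over all genes. The median size was 0.62 for members and 0.27 for all genes. Without line A2, 15 members were higher and 5 lower, all 12 among them, where 15.7% of all genes were higher and 14.2% lower in that fit. Without WT library 1, 2 or 3 of day 5, 6, 7 and 5 members were higher and 2, 2 and 3 lower. Of all genes 5.49, 5.91 and 5.49% were then higher and 4.67, 4.77 and 4.47% lower.

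Meg3 showed the largest difference. It was 21.9, 23.6 and 21.9 CPM in the 3 WT day 5 libraries and 144, 82.1 and 432 CPM in KO lines A5, B1 and A2, a log2 fold change of 3.29 ± 0.47 (adjusted p = 0.00024). Every KO line was above every WT library, and line A2 was highest, at 19.2 times the WT mean against 6.43 and 3.65 times in A5 and B1. Without the day 5 library of line A2 the log2 fold change was 2.33, and the call was kept in all 24 alternatives. Nnat was 0.803, 1.80 and 2.54 CPM in WT and 9.25, 9.88 and 17.96 CPM in KO (2.86 ± 0.60, adjusted p = 0.00364), so that the lowest KO library was above the highest WT library. This rests on 24 counts over the WT and 173 over the KO libraries. Plagl1 was 6.42, 8.998 and 7.16 CPM in WT and 9.72, 36.3 and 61.6 CPM in KO (2.26 ± 0.57, adjusted p = 0.0128). Here line A5 was at 1.29 times the WT mean and lines B1 and A2 at 4.83 and 8.19 times. Without the WT library 1 or 3 or the KO A2 library of day 5, Plagl1 lost its call (adjusted p up to 0.0841).

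Mest was 25.5, 20.6 and 21.9 CPM in WT and 88.2, 63.6 and 138 CPM in KO (2.09 ± 0.22, adjusted p = 1.19e-05), with all 3 lines at 2.81 to 6.08 times the WT mean. Peg3, a zinc finger gene of maternal behaviour and growth, was 257, 276 and 256 CPM in WT and 918, 871 and 1207 CPM in KO (1.93 ± 0.44, adjusted p = 0.00645). The 3 lines were close to each other here, at 3.31 to 4.59 times the WT mean. Its head-to-head neighbour Usp29, a ubiquitin protease gene, was 5.22, 4.80 and 4.38 CPM in WT and 10.7, 11.2 and 8.98 CPM in KO (1.09 ± 0.32, adjusted p = 0.0274). Zim1, the maternally read gene on the other side of Peg3, had a log2 fold change of 0.08 ± 0.53 (adjusted p = 0.943). Impact, an inhibitor of the translation stress kinase GCN2, was 150.3, 152 and 149 CPM in WT and 278, 293 and 340.3 CPM in KO (1.02 ± 0.20, adjusted p = 0.00287). Each line was 1.85 to 2.26 times the WT mean.

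The other 2 genes that were higher moved by less or less evenly. Zrsr1, a splicing factor retrogene with a close copy on the X chromosome, was 38.5, 38.8 and 31.6 CPM in WT and 50.8, 49.4 and 55.3 CPM in KO (0.51 ± 0.13, adjusted p = 0.00996). Line A2 was the highest, and the part of its chromosome 11 shift in this level was not tested. Cdkn1c was 4.01, 3.20 and 5.08 CPM in WT and 13.8, 4.08 and 8.37 CPM in KO (1.09 ± 0.35, adjusted p = 0.039), and line B1 lay within the WT range. The call of Cdkn1c ended in 11 of 24 alternatives, with adjusted p up to 0.208 when a library was left out. Zrsr1 lost its call without WT library 3 of day 5 (adjusted p = 0.062), and Usp29 lost it without any 1 of the 3 WT libraries or without KO A5 or B1 of that day (adjusted p up to 0.0969).

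Sgce, a sarcoglycan gene at chr6:4674350-4747207 (GRCm38, GENCODE M21), was lower. It was 10.4, 13.4 and 13.6 CPM in WT and 5.93, 4.08 and 5.92 CPM in KO (-1.23 ± 0.28, adjusted p = 0.00614), every KO library below every WT library. Its neighbour Peg10, which shares a control region with it, was 526, 569.9 and 554 CPM in WT and 492, 438 and 352 CPM in KO, also without overlap but short of the threshold (-0.36 ± 0.46, adjusted p = 0.634). Ppp1r9a, a maternally read actin-binding gene of the same cluster, was 53.8, 59.8 and 45.5 CPM in WT and 34.4, 27.1 and 36.7 CPM in KO (-0.70 ± 0.19, adjusted p = 0.0161). It lost its call without WT library 1 or 2 or KO B1 of day 5 (adjusted p up to 0.0751). Sfmbt2 at chr2:10370510-10595253 was 251, 247 and 254 CPM in WT and 107, 147 and 78.3 CPM in KO (-1.18 ± 0.21, adjusted p = 0.00114), and again no KO library reached the WT range.

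**Figure D1:**
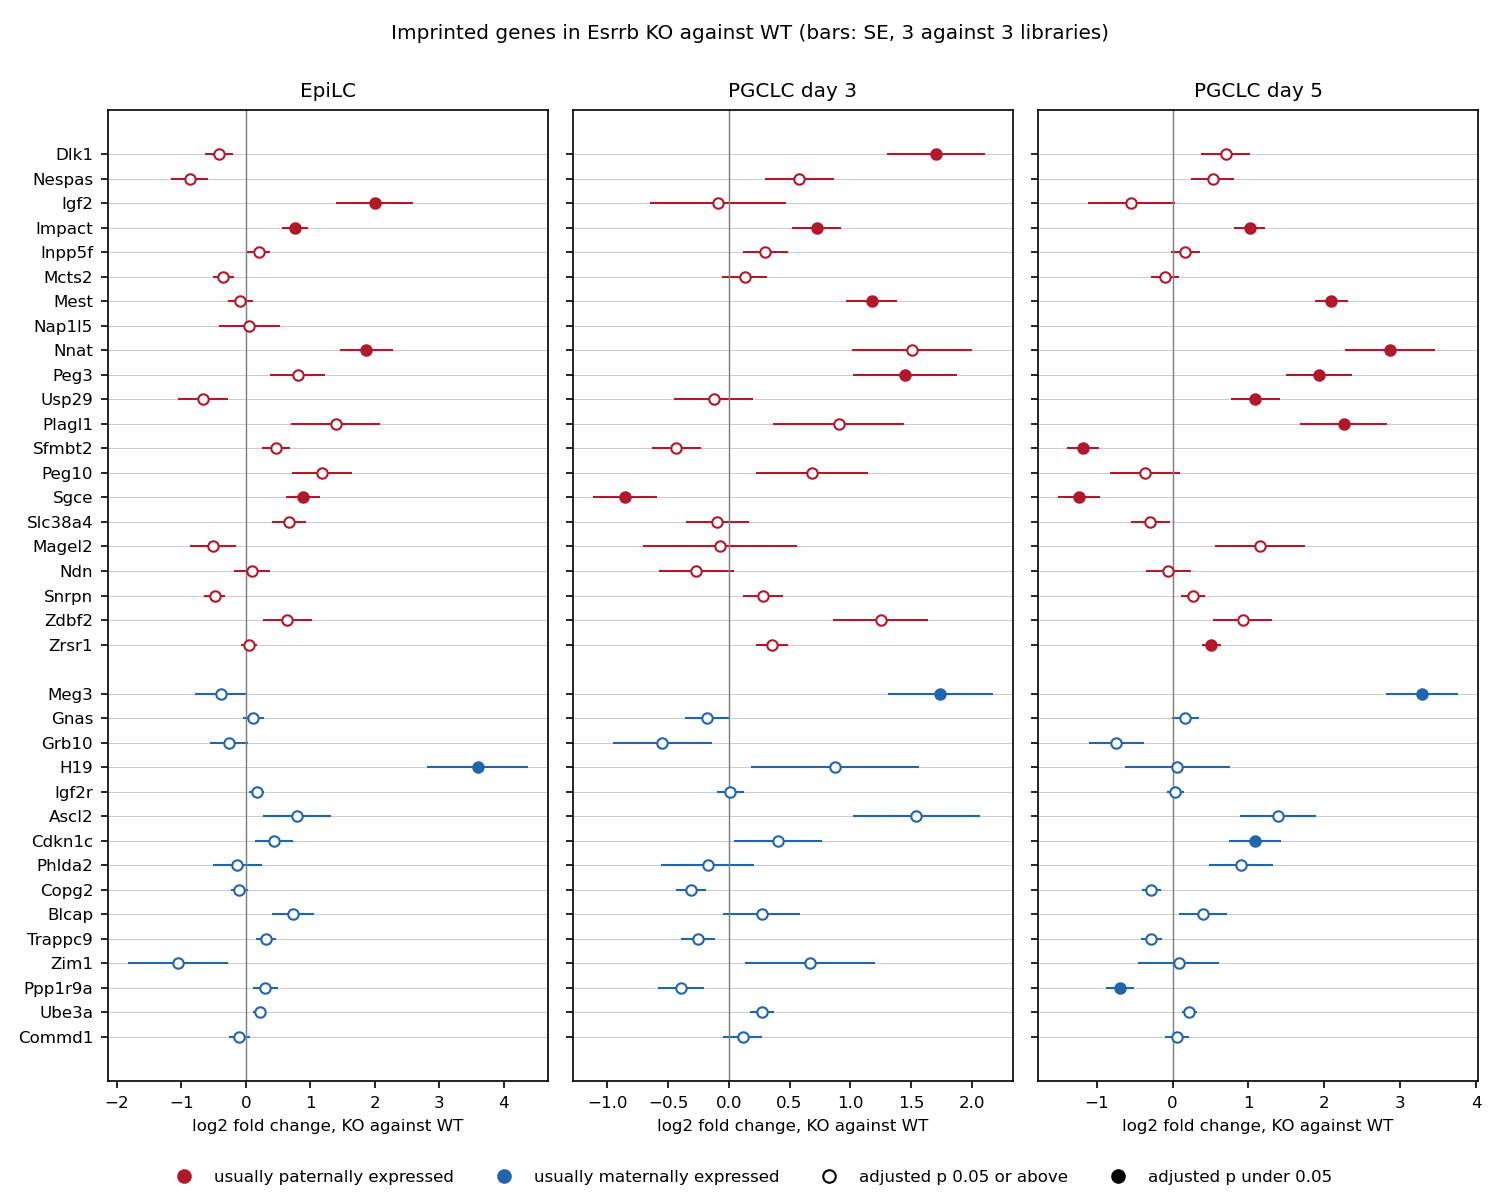
Log2 fold change of KO against WT (horizontal axis) for each tested member (vertical axis) in EpiLC and in PGCLC at days 3 and 5; points are fitted values, bars the SE, 3 libraries a group, filled where the adjusted p was under 0.05, and Nap1l5 is left out in PGCLC, where it had 0 to 5 counts over a group. At day 5, 9 members lie filled to the right and 3 to the left, with Meg3 farthest right at 3.29.

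**Figure D2:**
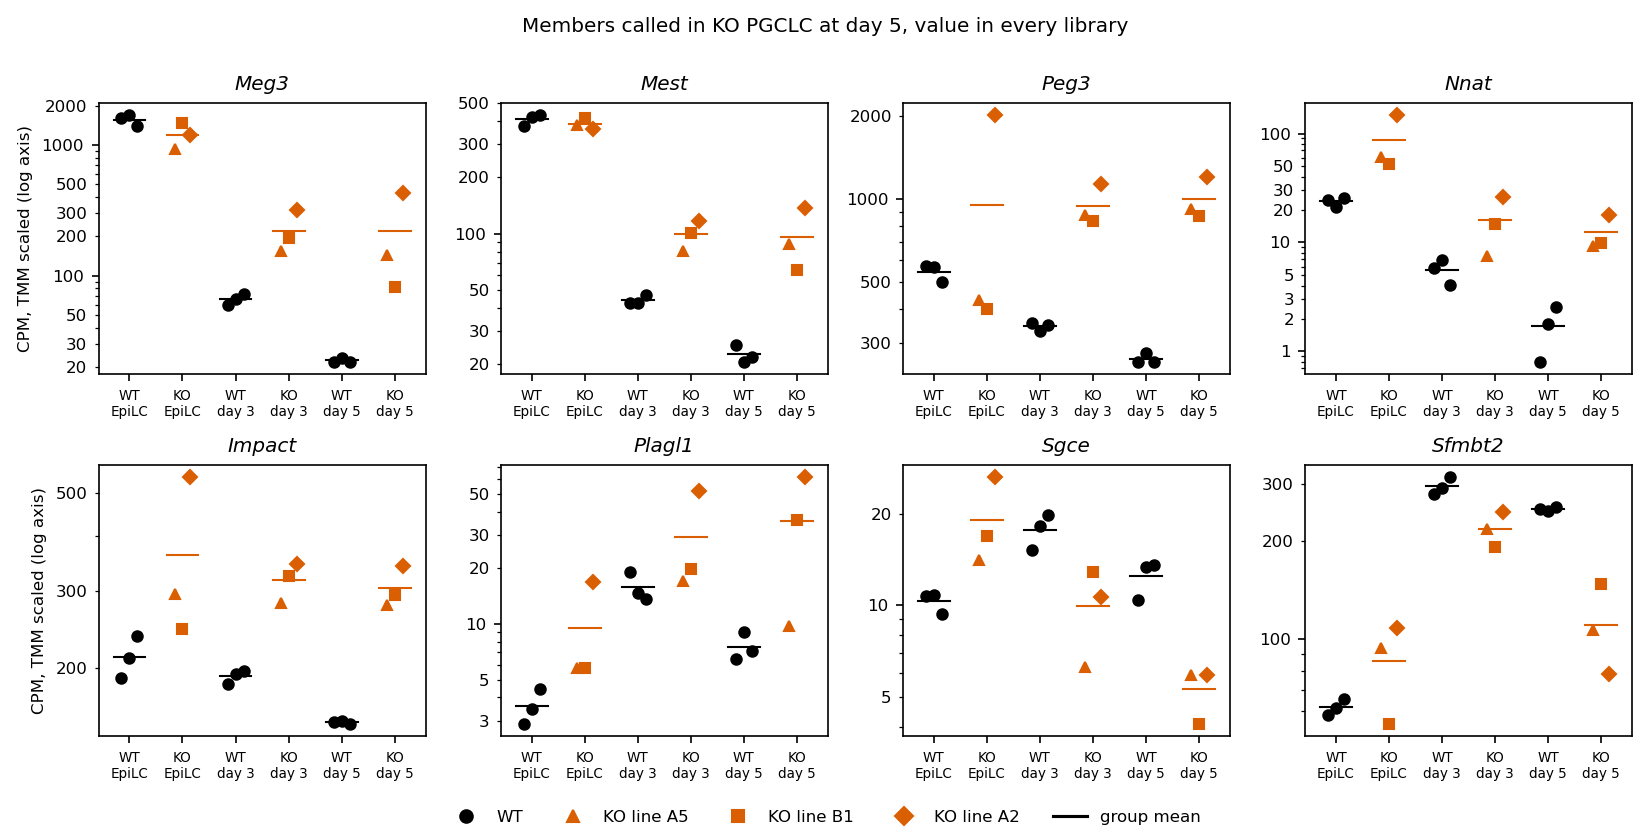
Level in every library (CPM with TMM scaling, log axis) of 8 of the 12 members called at day 5, by group; black points are WT, orange symbols the KO lines, and horizontal lines the group means. Meg3 and Mest overlap between WT and KO in EpiLC and are apart at both PGCLC days.

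At day 3, 5 of 36 members (13.9%) were higher in KO and 1 (2.78%) lower, where 5.00% of all genes were higher and 5.18% lower. Meg3 was 60.05, 65.6 and 72.6 CPM in WT and 153, 194 and 316 CPM in KO (1.74 ± 0.43, adjusted p = 0.0181). Dlk1, from the same domain, was 0.241, 0.376 and 0.908 CPM in WT and 1.95, 1.32 and 1.78 CPM in KO (1.71 ± 0.41, adjusted p = 0.0325), which rests on 7 counts over the WT and 20 over the KO libraries. Neither gene overlapped between genotypes. Mest was 42.4, 42.7 and 46.8 CPM in WT and 80.5, 101 and 117 CPM in KO (1.18 ± 0.21, adjusted p = 0.00197), and its call was kept in all 24 alternatives. Peg3 was 354, 331 and 350.3 CPM in WT and 872, 831 and 1131 CPM in KO (1.45 ± 0.43, adjusted p = 0.0419). Impact was 184, 194 and 197 CPM in WT and 281, 324 and 346 CPM in KO (0.72 ± 0.20, adjusted p = 0.0326). Sgce was 15.2, 18.2 and 19.8 CPM in WT and 6.29, 12.9 and 10.7 CPM in KO (-0.86 ± 0.26, adjusted p = 0.0486). In all 6 genes every KO line lay on the same side of every WT library. The calls of Peg3 and Sgce were near the threshold and ended in 16 and 14 of 24 alternatives.

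5 members were called at both PGCLC days: Meg3, Mest, Peg3, Impact and Sgce. Of these, Impact and Sgce were also called in EpiLC, below, where Sgce was on the other side of WT. At day 3 all KO libraries were above all WT libraries in 14 members and below them in 5 of 36, where 18.3% of all genes tested lay above and 18.3% below. At day 5 this held for 15 members above and 8 below, where 20.8% of all genes lay above and 20.3% below. The shares of all genes called at both days, or on 1 side of WT at both days, were not counted. Deviations of the KO lines correlated between these days (0.365 to 0.614), so the 2 days are not independent. 10 members lay above and 5 below WT at both days. Beside those called, these were Ascl2, a trophoblast transcription factor gene, Nnat, Snrpn, Ube3a, Zdbf2 and Dlk1 above WT, and Copg2, Grb10, Ppp1r9a and Sfmbt2 below. Ascl2 was 3.81, 3.999 and 4.15 CPM in WT and 18.03, 5.80 and 7.75 CPM in KO at day 5 (1.39 ± 0.50, adjusted p = 0.0678). Grb10 was 25.5, 25.2 and 24.7 CPM in WT and 16.4, 17.4 and 11.4 CPM in KO (-0.74 ± 0.36, adjusted p = 0.173). In Grb10 lines A5, B1 and A2 were at 0.651, 0.693 and 0.455 of the WT mean. Zdbf2 was 87.3, 89.98 and 70.6 CPM in WT and 131, 122 and 219 CPM in KO (0.93 ± 0.39, adjusted p = 0.115), with lines A5, B1 and A2 at 1.58, 1.47 and 2.65 times the WT mean. The part of the shifts of chromosomes 11 and 1 of line A2 in the levels of Grb10 and Zdbf2 was not tested. Without line A2, 14 members were higher and 5 lower at day 3, all 6 among them, where 10.6% of all genes were higher and 10.3% lower. These 19 include Asb4, which did not pass the filter with all libraries and passed it in that fit. Without the EpiLC library of A2 alone 9 were higher and 3 lower, where 9.57% and 9.24% of all genes were. The count of 6 was 1, 1 and 2 without WT library 1, 2 or 3 of day 3, and 2 without KO A2 of day 3. Of all genes 2.02 to 2.34% were higher and 2.72 to 2.94% lower without 1 of these WT libraries. Without KO A2 of day 3 the shares were 3.00% and 3.23%. In these PGCLC the summed mesenchyme markers were 17.6 to 21.1 CPM in WT and 27.5 to 41.3 CPM in KO at day 3, and 7.63 to 13 CPM in WT and 25.6, 29.2 and 96.7 CPM in KO at day 5. 1 to 3 of those 7 markers were at 0 in each day 3 library, and the part of such cells was not tested.

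The IGF2 arm showed no called difference in KO PGCLC. At day 3 H19 was 1020, 1223 and 1166 CPM in WT and 1587, 1322 and 3353 CPM in KO, every KO library above every WT library but short of the threshold (0.88 ± 0.69, adjusted p = 0.469). Igf2 was 17.6, 19.4 and 34.5 CPM in WT and 29.7, 6.28 and 29.8 CPM in KO (-0.09 ± 0.56, adjusted p = 0.948), and Igf2r 311, 316 and 312 and 344, 347 and 256 CPM (0.01 ± 0.11, adjusted p = 0.967). At day 5 Igf2 was 13.4, 20.8 and 30.2 CPM in WT and 25.1, 7.74 and 11.4 CPM in KO (-0.55 ± 0.57, adjusted p = 0.554), H19 was 898, 1021 and 1106 and 1032, 1013 and 1116 CPM (0.06 ± 0.69, adjusted p = 0.966), and Igf2r was 259.9, 279.7 and 254 and 306, 270.5 and 236 CPM (0.03 ± 0.11, adjusted p = 0.875). At day 5 H19, Igf2 and Igf2r overlapped between genotypes, and a p above the threshold does not show that the levels were alike.

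In EpiLC 5 of 36 members (13.9%) were higher in KO and 0 lower, where 6.93% of all genes were higher and 4.15% lower. 12 members, and 29.3% of all genes, had an unadjusted p under 0.05. DESeq2 called 6 members and limma 4, where they called 8.53% and 7.36% of all genes higher and 5.68% and 2.81% lower. H19 was 87.4, 82.1 and 69 CPM in WT, 379 and 87.5 CPM in lines A5 and B1 and 2413 CPM in the library labelled KO A2 (3.60 ± 0.78, adjusted p = 0.0147). Line B1 was only just above the highest WT library. Igf2 was 7.85, 9.13 and 10.9 CPM in WT and 37.2, 13.6 and 60.99 CPM in lines A5, B1 and the library labelled A2 (2.00 ± 0.60, adjusted p = 0.0436). Nnat was 24.6, 21.2 and 25.5 and 60.3, 52.8 and 147 CPM (1.87 ± 0.41, adjusted p = 0.0152). Impact was 189.7, 211 and 236 and 295, 246 and 543 CPM (0.77 ± 0.20, adjusted p = 0.0271). Sgce was 10.7, 10.8 and 9.37 and 14.1, 16.9 and 26.3 CPM (0.89 ± 0.26, adjusted p = 0.0402), the opposite side from its PGCLC values. None of the 5 overlapped between genotypes. In EpiLC all KO libraries were above WT in 9 members and below it in 5, where 15.9% of all genes lay above and 16.4% below. The library labelled A2 was highest in each of the 5 called members.

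These EpiLC calls turned on single libraries. Without the library labelled KO A2, 3 members were called, with log2 fold changes of 1.25 for Nnat (adjusted p = 0.0422), -1.16 for Nespas (adjusted p = 0.0395) and 0.45 for Inpp5f (adjusted p = 0.0368), while H19 was at 1.55 (adjusted p = 0.0602), Igf2 at 1.45 (adjusted p = 0.194), Sgce at 0.58 (adjusted p = 0.184) and Impact at 0.35 (adjusted p = 0.0854). Without any 1 WT EpiLC library no member was called, with 8 and 13 called without the EpiLC library of A5 or of B1, and with 3 called without any 1 WT PGCLC library other than library 1 of day 5. Of all genes 0.702 to 0.900% were higher and 0.611 to 0.686% lower without 1 WT EpiLC library. The shares were 10.6% and 5.79% without A5, 12.1% and 6.84% without B1 and 2.29% and 2.28% without the library labelled A2. In the fits without those WT PGCLC libraries they were 5.01 to 5.63% and 2.68 to 3.05%. The library labelled A2 held the highest of the 6 EpiLC values in 17 of 36 members and the lowest in 12, while each of the other 5 held 6 to 10 such extremes. Peg3 was 572, 565 and 498 CPM in WT and 429.8 and 399.8 CPM in lines A5 and B1, below WT, but 2018 CPM in the library labelled A2. Its log2 fold change was 0.80 ± 0.42 (adjusted p = 0.217) with all libraries and -0.40 (adjusted p = 0.000478) without line A2, so its direction turned. Peg10 was 682, 638 and 643 CPM in WT and 927, 470.5 and 3035 CPM in KO in the same order. Grb10 was 263, 264 and 285 CPM in WT and 293, 302 and 83.5 CPM in KO, and Snrpn 875, 833 and 877 and 732, 727 and 388 CPM. Trophoblast, mesenchyme and naive markers were also highest in that library. There 7 trophoblast markers summed to 181 CPM, against 11.3 and 29.1 CPM in the other KO and 9.37 to 15.1 CPM in WT EpiLC, with 2 of the 7 at 0 in every EpiLC library. The 7 naive markers summed to 459 CPM there, 98 and 94.9 CPM in A5 and B1 and 187 to 231 CPM in WT EpiLC, with none at 0. For these the other KO libraries lay below WT. 7 endoderm markers summed to 45.1, 17.1 and 36.3 CPM in A5, B1 and the library labelled A2 against 6.54 to 9.11 CPM in WT EpiLC, with 0 to 3 of them at 0. 6 neural markers summed to 296, 404 and 263 CPM against 210 to 224 CPM, with none at 0. The part of these markers in the EpiLC values was not tested.

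**Figure D3:**
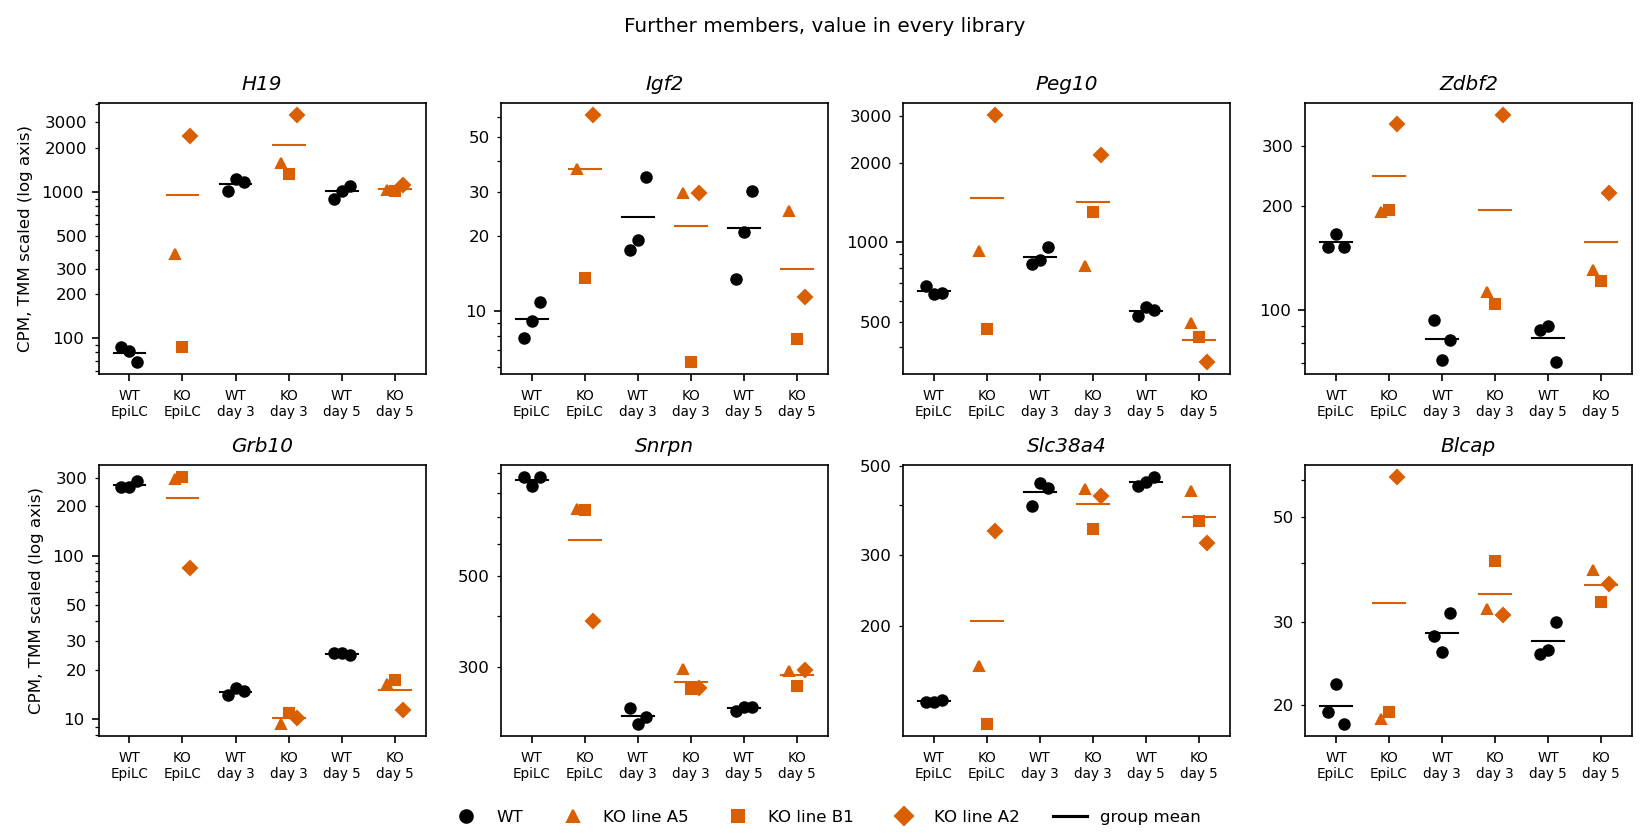
Level in every library (CPM with TMM scaling, log axis) of 8 further members, by group; black points are WT, orange symbols the KO lines, and horizontal lines the group means. In EpiLC the diamond of the library labelled KO A2 lies far above the other 5 libraries for H19 and Peg10 and below them for Grb10 and Snrpn.

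The step from EpiLC to day 3 was then compared between genotypes. In KO 9 members rose and 14 fell (25.0% and 38.9%), where 20.6% of all genes rose and 21.4% fell. The step itself differed between KO and WT in 5 members, 4 with a higher and 1 with a lower value in KO, 11.1% and 2.78%, where 2.96% and 3.63% of all genes did so. Meg3 fell by 4.56 on the log2 scale in WT and by 2.43 in KO, a difference of 2.13 ± 0.59 (adjusted p = 0.0426). Mest fell by 3.22 in WT and by 1.96 in KO (1.26 ± 0.28, adjusted p = 0.0163). Dlk1 fell by 4.99 in WT and by 2.88 in KO (2.12 ± 0.46, adjusted p = 0.0149). Meg3, Mest and Dlk1 fell in both genotypes and by less in KO. Nespas, the antisense RNA of the Gnas domain, fell by 0.74 in WT and had a change of 0.71 ± 0.29 (adjusted p = 0.0605) in KO (1.45 ± 0.41 for the difference, adjusted p = 0.043). Sgce rose by 0.78 in WT and fell by 0.96 in KO (-1.74 ± 0.37, adjusted p = 0.0126).

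Nespas was 8.90, 10.4 and 7.55 CPM in WT EpiLC, 4.58, 5.08 and 6.36 CPM in WT at day 3, 3.47, 4.53 and 6.64 CPM in KO EpiLC and 9.55, 6.61 and 7.63 CPM in KO at day 3. It shares 988 exon bases with Gnas on the other strand, as Mest shares 912 with Copg2 and Zrsr1 412 with Commd1. The library kit marks strand, but the strand setting of the counting was not stated, so reads of such partners may not have been told apart. Mest and Sgce kept their difference in all 25 alternatives, while the calls of Meg3 and Nespas ended in 14 of 25 each. Since the same KO line gave a library at each stage, the fit with the line as a replicate block was also made, and it called 8 members: the same 5, and Ppp1r9a (-0.68, adjusted p = 0.0492), Snrpn (0.80, adjusted p = 0.0345) and Igf2 (-2.10, adjusted p = 0.00952). In that fit 5.62% of all genes were higher and 5.72% lower. Without line A2, 7 members were higher and 3 lower, Asb4 among them, where 7.61% and 7.11% of all genes were. The count was 2 without WT library 1 or 2 of day 3 and 9 without the EpiLC library of KO B1. Of all genes 1.53% and 1.14% were higher and 1.84% and 1.62% lower without WT library 1 or 2. Without the EpiLC library of KO B1 4.60% were higher and 7.08% lower.

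In KO alone Grb10 fell most, from 293, 302 and 83.5 CPM in lines A5, B1 and A2 of EpiLC to 9.33, 10.9 and 10.2 CPM at day 3 (-4.49 ± 0.38, adjusted p = 5.31e-07). Nap1l5, a histone chaperone relative, fell from 5.08, 4.28 and 2.85 to 0.217, 0 and 0.509 CPM (-3.84 ± 0.72, adjusted p = 0.000768), with 51 counts over the KO EpiLC libraries and 3 over those of day 3. Magel2 fell from 17.1, 16.1 and 5.70 to 0.651, 0.661 and 1.78 CPM (-3.61 ± 0.48, adjusted p = 2.86e-05). The next were the genes of the Dlk1-Meg3 domain. Dlk1 fell from 14.6, 12.3 and 11.4 to 1.95, 1.32 and 1.78 CPM (-2.88 ± 0.28, adjusted p = 1.39e-06), and Meg3 from 928, 1465 and 1189 to 153, 194 and 316 CPM (-2.43 ± 0.43, adjusted p = 0.000372). Nnat fell from 60.3, 52.8 and 147 to 7.59, 14.9 and 26.2 CPM (-2.43 ± 0.43, adjusted p = 0.00036), and Mest from 381, 414 and 362 to 80.5, 101 and 117 CPM (-1.96 ± 0.20, adjusted p = 2.5e-06). Gnas fell from 251, 255 and 370.2 to 63.1, 64.1 and 98.8 CPM (-1.95 ± 0.18, adjusted p = 1.03e-06), and Cdkn1c from 21.3, 18.9 and 28.9 to 4.77, 6.61 and 6.36 CPM (-1.97 ± 0.33, adjusted p = 0.000189). The Prader-Willi genes also fell in KO. For Snrpn the fall was smaller than in WT, a difference called in some alternative fits but not in the main fit. Ndn went from 30.7, 36.98 and 11.4 to 9.55, 8.59 and 10.4 CPM (-1.46 ± 0.30, adjusted p = 0.00104), and Snrpn from 732, 727 and 388 to 296, 265 and 266 CPM (-1.16 ± 0.16, adjusted p = 4.38e-05). Mcts2, Inpp5f and Sgce also fell, by less than 1 on the log2 scale.

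Among the genes that rose in KO, Zim1, a zinc finger gene, went from 0.462, 0 and 0.949 CPM to 4.12, 1.98 and 2.04 CPM (2.47 ± 0.67, adjusted p = 0.00742), which rests on 6 and 33 counts over the groups. Plagl1 rose from 5.78, 5.79 and 16.9 to 16.9, 19.8 and 51.7 CPM (1.63 ± 0.57, adjusted p = 0.0305). Usp29 rose from 2.08, 2.52 and 2.14 to 10.2, 4.96 and 3.56 CPM (1.49 ± 0.37, adjusted p = 0.00429), where the WT libraries went from 2.88, 5.18 and 2.60 to 7.96, 5.64 and 7.26 CPM (0.95 ± 0.35, adjusted p = 0.0269). Igf2r rose from 128, 116 and 116 to 344, 347 and 256 CPM (1.39 ± 0.12, adjusted p = 3.77e-07), and Sfmbt2 from 93.8, 54.9 and 108 to 218, 192 and 245 CPM (1.35 ± 0.21, adjusted p = 0.000128). Slc38a4, Trappc9, Commd1 and Copg2 rose by less than 1 on the log2 scale. Commd1, a copper metabolism gene, was 97.98, 90.8 and 76.2 CPM in KO EpiLC, 171, 162 and 112 CPM at day 3 and 158, 197 and 123 CPM at day 5, with line A2 lowest each time, at 0.802 to 0.818 of the WT mean against 0.957 to 1.29 in the other lines.

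3 members turned on the EpiLC library labelled A2 in this step. H19 had a log2 fold change of 1.12 ± 0.70 (adjusted p = 0.208) in KO with all libraries. It was 3.16 (adjusted p = 7.05e-05) without that library, 2.63 (adjusted p = 0.00104) without line A2, and 1.76 (adjusted p = 0.0496) with the line as a replicate block. Peg3 was at -0.01 ± 0.42 (adjusted p = 0.989) with all libraries, at 1.19 (adjusted p = 2.29e-06) without that library and at 1.03 (adjusted p = 2.96e-11) without line A2. Peg10 was at -0.06 ± 0.46 (adjusted p = 0.925) with all libraries and at 1.02 (adjusted p = 0.0129) without that library.

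**Figure D4:**
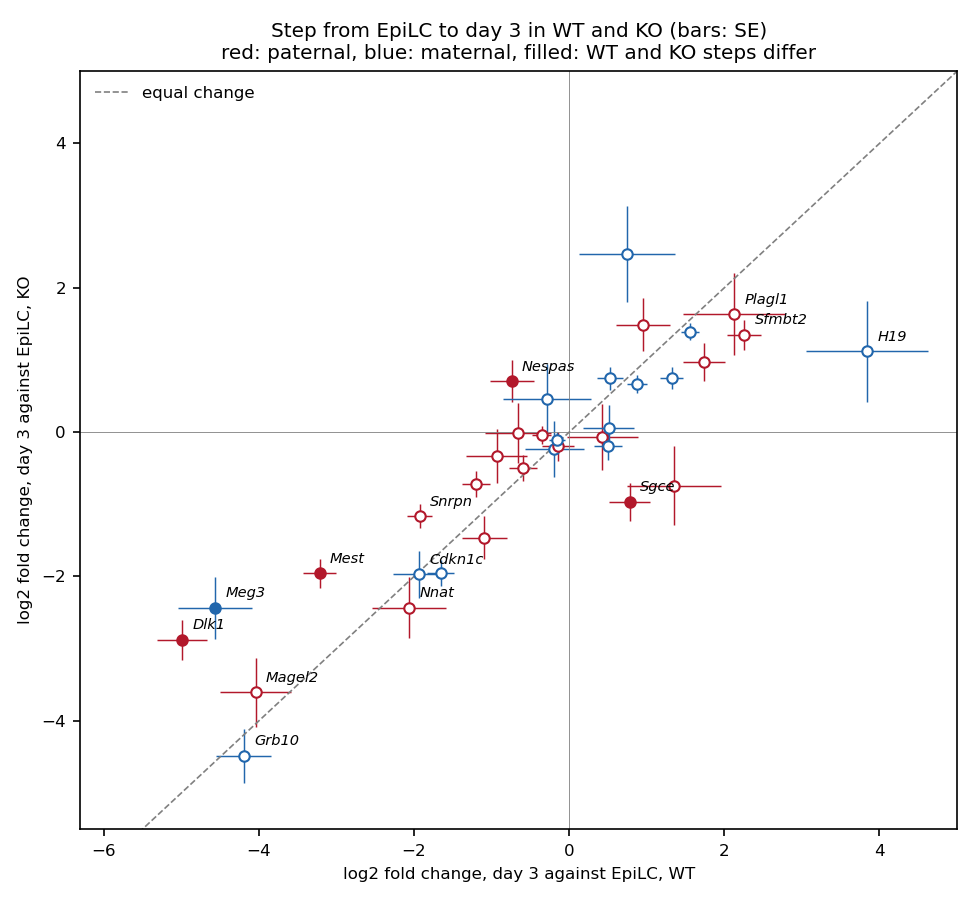
Log2 fold change of day 3 against EpiLC in WT (horizontal axis) and in KO (vertical axis) for 35 tested members, with SE bars and the line of equal change; Nap1l5, at 0 counts in WT at day 3, is left out. Filled points are the 5 members whose step differed: Meg3, Mest, Dlk1 and Nespas above the line and Sgce below it.

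From day 3 to day 5 in KO, Sfmbt2 was the only member called, where 0.366% of all genes rose and 0.187% fell. It was 218, 192 and 245 CPM at day 3 and 107, 147 and 78.3 CPM at day 5 in lines A5, B1 and A2 (-0.98 ± 0.21, adjusted p = 0.0483). With the line as a replicate block Sfmbt2 was at -0.97 (adjusted p = 0.0821) and Gnas at 0.46 (adjusted p = 0.0333), the only call there. In that fit 1.03% of all genes rose and 0.646% fell. Leaving out 1 library ended the call of Sfmbt2 in most cases, with a total of 0 to 3 members called. In those fits 0.0305 to 1.60% of all genes rose and 0.0381 to 1.07% fell. No member and 0% of all genes in either direction differed between KO and WT in this step. 4 members, and 4.36% of all genes, had an unadjusted p under 0.05, and DESeq2 and limma called none of the members.

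Neighbours within a domain did not all move together. Over the 18 libraries, which share stage and genotype, Pearson's r of log2 levels was 0.97 between Snrpn and Magel2, 0.88 between Snrpn and Ndn, 0.88 between Meg3 and Dlk1, and -0.88 between Mest and Copg2. It was 0.50 for H19 and Igf2, 0.57 for Sgce and Peg10, 0.08 for Peg3 and Usp29, and 0.05 for Nnat and Blcap. Copg2, a coat protein gene, was 152, 158 and 168 CPM in WT and 134, 126 and 132 CPM in KO at day 5, below WT where Mest was above (-0.28 ± 0.13, adjusted p = 0.143). Blcap was 25.7, 26.2 and 30 CPM in WT and 38.7, 33.1 and 36.1 CPM in KO (0.40 ± 0.31, adjusted p = 0.418). In the Kcnq1ot1 domain at day 5, Cdkn1c was called, while Phlda2 was 4.82, 5.999 and 8.54 CPM in WT and 20.4, 7.74 and 8.16 CPM in KO, with line A5 alone far above WT (0.90 ± 0.42, adjusted p = 0.159). The 6 members called in none of the 9 comparisons were Zdbf2, Peg10, Phlda2, Ascl2, Blcap and Ube3a.

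Of 19 imprint regulators tested, 1 was lower in KO EpiLC, 2 were higher at day 3 and 3 were higher at day 5, where 4.15% of all genes were lower in EpiLC, and 5.00% and 9.83% higher at days 3 and 5. Dnmt3a, a de novo DNA methyltransferase, was 1424 ± 30.2 CPM (mean ± SD, n = 3) in WT and 882 ± 97.2 CPM in KO EpiLC (-0.69 ± 0.15, adjusted p = 0.0144), and 115 ± 10.1 and 192 ± 33.03 CPM at day 5 (0.74 ± 0.16, adjusted p = 0.00366). Its step to day 3 differed between genotypes (1.47 ± 0.22, adjusted p = 0.0014). Zfp445 was 29.1 ± 1.31 CPM in WT and 46 ± 6.46 CPM in KO at day 5 (0.66 ± 0.15, adjusted p = 0.00649), and Arid4a, a chromatin gene of imprint control, had a log2 fold change of 0.54 ± 0.15 (adjusted p = 0.023). Zfp57 was 251 ± 22.6 CPM in WT and 176 ± 34.99 CPM in KO (-0.51 ± 0.40, adjusted p = 0.413). Trim28 had -0.01 ± 0.10 (adjusted p = 0.983), the maintenance methyltransferase Dnmt1 0.23 ± 0.10 (adjusted p = 0.127) and Dnmt3l -0.40 ± 0.40 (adjusted p = 0.537). Dppa3, which encodes Stella and to which a reporter of the sort is linked, had 0.24 ± 0.29 (adjusted p = 0.61). At day 3 the calls were Dnmt3a (0.78 ± 0.16, adjusted p = 0.00554) and Zfp445 (0.52 ± 0.15, adjusted p = 0.0381).

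Of 38 other imprinted genes, 21 were tested. At day 5, 3 were higher in KO and 4 lower, where 9.83% of all genes were higher and 7.62% lower. At day 3, 1 was higher and 1 lower, where 5.00% and 5.18% of all genes were, and in EpiLC 3 were higher and 1 lower, where 6.93% and 4.15% were. The highest at day 5 was Pde4d, a cyclic AMP phosphodiesterase gene (2.41 ± 0.33, adjusted p = 0.00014), and the lowest were Pon2 (-1.79 ± 0.41, adjusted p = 0.00641), a paraoxonase gene of the Sgce cluster, Cobl (-1.54 ± 0.46, adjusted p = 0.03) and Peg12 (-1.34 ± 0.34, adjusted p = 0.0114). At day 3 Pde4d (1.75 ± 0.34, adjusted p = 0.00409) was higher and Peg12 (-1.12 ± 0.33, adjusted p = 0.0381) lower. In EpiLC Osbpl5 (2.21 ± 0.61, adjusted p = 0.0313), Phactr2 (1.17 ± 0.27, adjusted p = 0.0175) and Cd81 (0.88 ± 0.26, adjusted p = 0.0412) were higher and Dcn (-1.78 ± 0.39, adjusted p = 0.0276) lower. Osbpl5 was 2.77 to 15.9 CPM in the KO and 0.987 to 2.62 CPM in the WT EpiLC libraries. Of 12 partners of IGF signalling, 11 were tested, with 3 higher and 1 lower in EpiLC, 0 higher and 1 lower at day 3, and 6 higher and 1 lower at day 5, beside the same shares of all genes. The IGF-binding protein Igfbp2 was the one lower at each stage, with -0.77 ± 0.24 (adjusted p = 0.0495) in EpiLC, -2.21 ± 0.25 (adjusted p = 5.38e-05) at day 3 and -1.66 ± 0.24 (adjusted p = 0.000254) at day 5. Igfbp5 (3.39 ± 0.92, adjusted p = 0.0187), Igfbp4 (1.39 ± 0.46, adjusted p = 0.0455) and the adaptor Irs2 (1.06 ± 0.34, adjusted p = 0.0402) were higher at day 5. In EpiLC the adaptor Irs1 (2.32 ± 0.65, adjusted p = 0.0337), Igfbp4 (1.83 ± 0.44, adjusted p = 0.0207) and the receptor Igf1r (0.60 ± 0.18, adjusted p = 0.0417) were higher.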

How the data were processed

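RNA-seq read counts per gene were used as deposited by the authors for 18 libraries, and the deposited CPM values equalled the same files' counts scaled to their totals within a tolerance of 1e-06. Trimming with Trim Galore 0.4.3.1 and builds mm10 and GRCm38.p4 are named in the submitters' processing notes. The aligner, counter, annotation and use of strand were not given in the sources used here. Of 25965 rows, 56 without a gene ID were left out of all totals and tests. Counts of all 18 libraries were fitted together with 1 mean per group by edgeR 4.0.16 (quasi-likelihood F test, robust, TMM, filterByExpr) in R 4.3.3. p-values were adjusted by Benjamini-Hochberg over the 12856 genes tested and called under 0.05.

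The members, lists and tests were chosen with earlier results of these data known. Members were matched by symbol. Values in every library are given for members called in a comparison of KO with WT or of their steps, and for members called in a step with a log2 fold change of at least 1 in size. Up to 4 called genes a list and comparison are named, with some fixed regulators. Gene lengths are from GENCODE M21. Promoters are from RefSeq (GRCm38.p6), where 32 of 39 members matched.

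KO replicates are lines that gave a library at each stage, and their deviations correlated between stages (0.114 to 0.614 in 9 pairs). The WT numbers did not pair the libraries (-0.047 to 0.075 in 9 pairs). Alternatives were DESeq2 1.42.0, limma 3.58.1 on log2(CPM + 1), scaling by RLE, all genes without the count filter, only the groups compared, each library left out, line A2 left out, the line as a block, and subsets of members. The fit was tested on simulated data.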

Additional observations from a re-analysis of the deposited data

Results flagged for a closer look

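In 5 imprinted genes the change from EpiLC to PGCLC at day 3 differed between KO and WT by a test of the difference itself (edgeR quasi-likelihood test, Benjamini-Hochberg adjusted over all genes tested). The difference in log2 fold change, KO minus WT, was 2.13 for Meg3 (adjusted p = 0.0426), 1.26 for Mest (adjusted p = 0.0163), 2.12 for Dlk1 (adjusted p = 0.0149), 1.45 for Nespas (adjusted p = 0.043) and -1.74 for Sgce (adjusted p = 0.0126). The EpiLC library labelled KO A2, whose Esrrb count was above every WT EpiLC library, enters each of these. With that library left out, Mest, Dlk1, Nespas and Sgce kept their calls and Meg3 did not (2.13, adjusted p = 0.0565), while Peg3 (1.85, adjusted p = 1.79e-05), Snrpn (0.52, adjusted p = 0.00464) and Grb10 (-0.69, adjusted p = 0.0235) were called. In that fit 4.08% of all genes were higher and 3.89% lower.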

How the results depend on the processing

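No member called with all libraries changed direction under any alternative run. Members not called then could turn and be called: Peg3 in EpiLC went from 0.80 to -0.40 without line A2, and Peg3 and Peg10 in the KO step to day 3 went from -0.01 and -0.06 to 1.19 and 1.02 without the EpiLC library labelled A2. Leaving out single libraries gave 0 to 13 called members for KO against WT in EpiLC (5 with all libraries), 1 to 12 at day 3 (6), 0 to 3 for day 5 against day 3 in WT (0) and in KO (1), and 2 to 9 for the KO difference in the step to day 3 (5). Of all genes 0.702 to 12.1% were then higher and 0.611 to 6.84% lower in EpiLC, and 2.02 to 9.57% and 2.72 to 9.24% at day 3. For day 5 against day 3 the shares were 0.0153 to 2.13% and 0.0459 to 2.50% in WT. In KO they were 0.0305 to 1.60% and 0.0381 to 1.07%. For the KO difference in the step to day 3 they were 1.14 to 4.60% and 1.60 to 7.08%. For KO against WT at day 5, leaving out single libraries gave 5 to 13 members higher (9 with all libraries) and 2 to 5 lower (3). There 5.49 to 15.1% of all genes were higher and 4.47 to 12.5% lower. Leaving out line A2 gave 8 in EpiLC, 19 at day 3, 20 at day 5 (12), 8 for day 5 against day 3 in WT, 5 for the same in KO, 10 for the difference in the step to day 3 and 1, Peg3, for that in the step to day 5 (0). In that fit 6.59% of all genes were higher and 7.18% lower in EpiLC, 10.6% and 10.3% at day 3, and 15.7% and 14.2% at day 5. For day 5 against day 3 the shares were 7.58% and 7.95% in WT and 3.59% and 3.13% in KO. For the differences they were 7.61% and 7.11% in the step to day 3 and 0.516% and 0.139% in that to day 5. Fitting only the groups compared gave 0 in EpiLC, 14 for day 5 against day 3 in WT, 0 for the same in KO and 13 for day 3 against EpiLC in KO (23). In these fits 0% of all genes were called in EpiLC and for day 5 against day 3 in KO. For day 5 against day 3 in WT 15.1% were higher and 15.7% lower, and for day 3 against EpiLC in KO 9.30% and 8.89%. Without a filter on low counts the count was 0 for day 5 against day 3 in KO and 3 for the difference in the step to day 3. There 0.184% of all genes were higher and 0.0724% lower in the former, and 1.43% and 2.00% in the latter. For day 5 against day 3 in WT, DESeq2 called 3 and limma 1, where they called 1.01% and 0.537% of all genes higher and 1.52% and 0.568% lower. The cause of these shifts was not tested.

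With a replicate block, 8 members differed in the step to day 3, 28 were called for day 3 against EpiLC in WT (26), 26 for the same in KO, 3 for day 5 against day 3 in WT, where the numbers do not pair the libraries, and 1 in KO. The shares of all genes higher and lower were 5.62% and 5.72% for the difference in the step to day 3. For day 3 against EpiLC they were 31.5% and 31.1% in WT and 23.5% and 24.6% in KO. For day 5 against day 3 they were 1.29% and 1.72% in WT and 1.03% and 0.646% in KO. A block could not be fitted for KO against WT, since each line has 1 genotype. Depth limits Dlk1, Zim1, Magel2, Usp29 and Nap1l5, which had 0 to 216 counts over a group, and Airn, Asb4 and Rasgrf1, which did not pass the filter with all libraries. Asb4 passed it without line A2 and is among the 19 and 10 members called there. Low counts in some groups also bear on other called members. Among these are Nnat with 24 and Cdkn1c with 58 counts over WT day 5, Plagl1 with 42 over WT EpiLC and Nespas with 61 over KO EpiLC.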
